A study of Rattus norvegicus with 16 samples.

Results

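Genes for the receptors of glutamate, GABA and glycine were followed in the retinae of newborn rats raised in cyclic hyperoxia or in room air. The members were the genes with a probe set whose only annotated symbol names a subunit of an AMPA, kainate, NMDA, delta or metabotropic glutamate receptor, of a GABA-A, GABA-A rho or GABA-B receptor, or of a glycine receptor. This rule took 44 of 27342 probe sets, which stand for 43 of the 14324 genes tested. They comprise 17 ionotropic and 7 metabotropic glutamate receptor genes, 13 GABA-A genes with the rho subunits included, 2 GABA-B genes and 4 glycine receptor genes.

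Total RNA of whole retinae was hybridised to 16 Affymetrix gene arrays in 8 groups of 2 arrays. The groups were SD rats in cyclic hyperoxia, SD rats in room air, F344 rats in cyclic hyperoxia and F344 rats in room air, each on post-natal day 6 and on day 5. SD is the Sprague Dawley stock, known as susceptible to oxygen-induced retinopathy, and F344 is an inbred strain of Fischer rats, known as resistant. No group carried an engineered allele or received a drug. Dams and pups of the hyperoxia groups entered an oxygen chamber no later than 12 hours after birth, and the gas then changed every 24 hours between 80% and 21% oxygen until the pups were killed. The room air groups were of the same ages. Each array measured RNA pooled over rats, and the study's wording leaves unclear whether 3 rats from 2 litters made up each pool or both pools together, so a p-value here measures the spread between such pools.

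Glutamate is the transmitter of photoreceptors, bipolar cells and ganglion cells, and GABA and glycine are those of amacrine and horizontal cells. AMPA, kainate and NMDA receptors are cation channels opened by glutamate, GABA-A and glycine receptors are chloride channels, and metabotropic and GABA-B receptors act through G proteins. ON bipolar cells, which respond when light goes on, sense photoreceptor glutamate through the metabotropic receptor mGluR6, and their terminals carry slow GABA-A channels built of rho subunits. In the first post-natal week of the rat retina, amacrine and ganglion cells already signal while bipolar cells are still being born and photoreceptors are immature.

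The values are log2 levels after robust multi-array averaging, and the number of arrays limits their precision. Array medians over all probe sets lay between 5.45 and 5.52. Of the members, 15 had every group mean below 5.45, the lowest array median, namely Grik4, Grin2a, Grin2d, Grin3a, Grin3b, Grm4, Grm5, Gabra4, Gabra5, Gabra6, Gabrb1, Gabrg1, Gabrd, Gabrr2 and Glra1, and for these no linear fold is given because background signal makes up part of such a value. The 5 rod markers averaged between 8.86 and 10.21 per array, far above the array medians, as fits retinal RNA. One array was unlike its partner and is called the array that stood apart, namely replicate 2 of F344 retinae under hyperoxia on day 6. Its interquartile range of 2.81 was the lowest of the 16 arrays. Over all genes the median absolute difference between the 2 arrays of that group was 0.22, against 0.104 to 0.148 in the other groups, and over the members it was 0.255, against 0.073 to 0.197. In F344 under hyperoxia 34 members were lower in replicate 2 on day 6 and 35 on day 5. Their median difference over the 43 members was 0.238 on day 6 and 0.106 on day 5. In the day 6 group 16 of the 43 members differed by over 0.5 between the 2 arrays, against 0 to 5 in the other groups. Calls of members that use this group are given with and without that array; for counts of arrays that do not overlap, which need both arrays of a group, no such value is given.

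**Figure D1:**
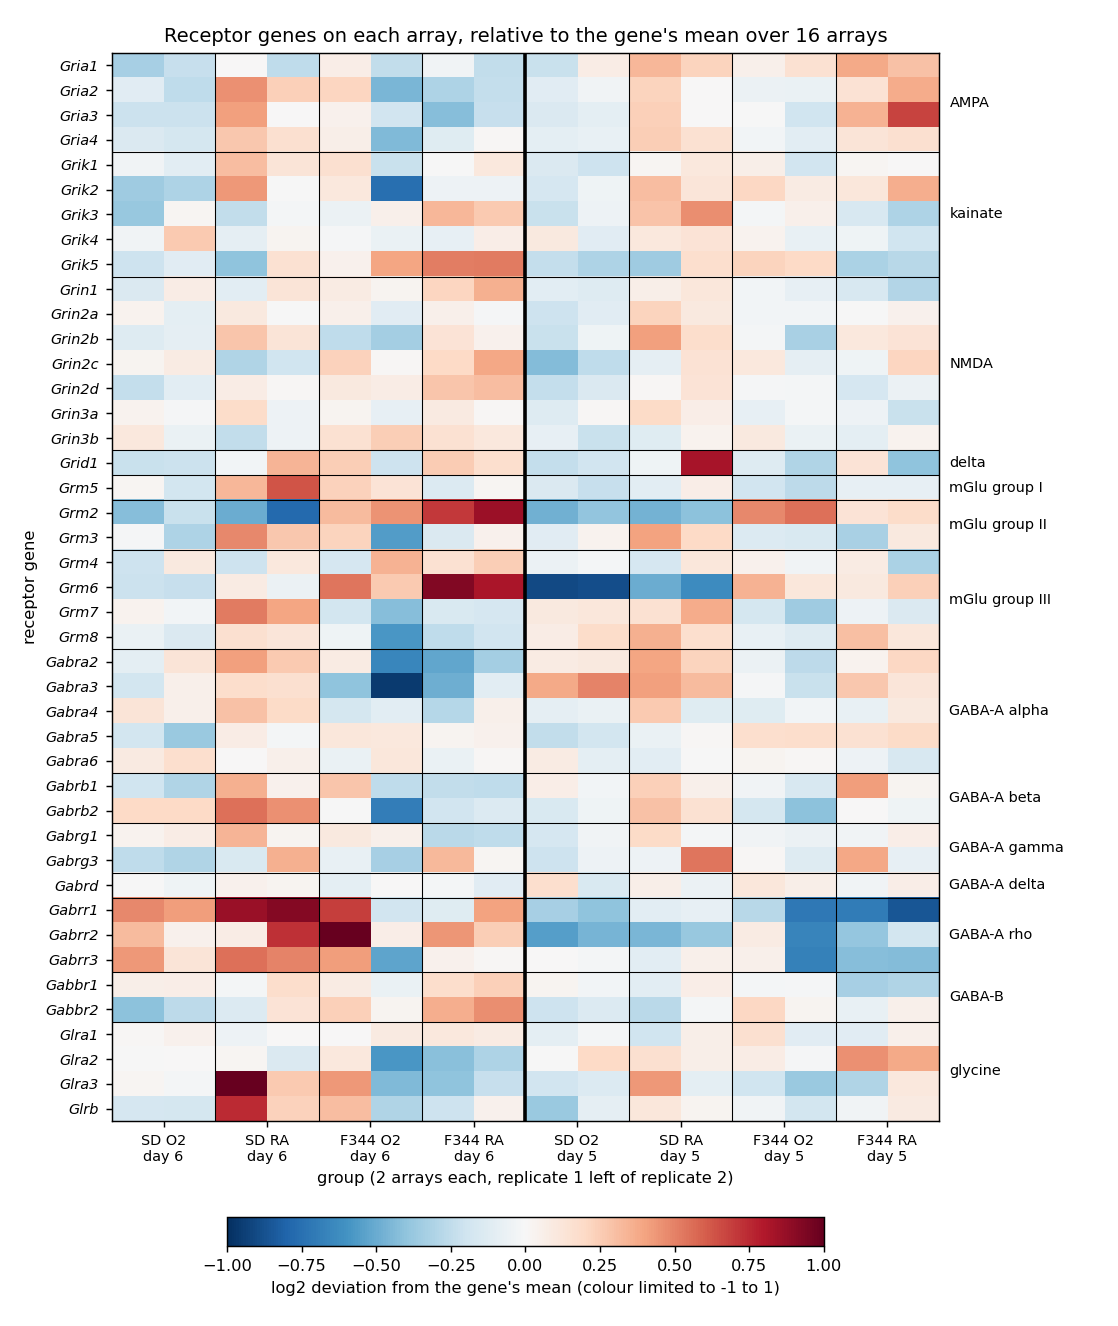
Each row is 1 of the 43 receptor genes, grouped by receptor class, and each column is 1 of the 16 arrays, with O2 for cyclic hyperoxia and RA for room air; colour gives the log2 level minus the gene's mean over all arrays, limited to −1 and 1. Grm2 and Grm6 are blue in SD and red in F344 columns on both days except for Grm6 in SD room air of day 6, the rho rows change between the day 6 columns on the left and the day 5 columns, and the second F344 hyperoxia column of day 6 is bluer than its partner in many rows.

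The first comparison was that between day 6 and day 5, taken over both strains. In room air it follows the receptor genes over 1 day of retinal maturation. In the hyperoxia groups the gas changed every 24 hours, so there 1 day of age cannot be told apart from a change of gas. Grm6, which encodes mGluR6, and the rho subunit gene Gabrr1 were higher on day 6 under both gas conditions. In room air 5 of 43 members passed the test, against 3% of all genes: Grm6, Gabrr1 and Gabbr1 rose and Gria1 and Glra2 fell. Under cyclic hyperoxia 4 of 43 members passed, against 4.8% of all genes: Grm6, Gabrr1 and Gabrr2 rose and Gabra3 fell. The median change over the 43 members was 0.06 in room air and 0.05 under hyperoxia, against 0.02 and 0.01 over all genes.

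Grm6 reached 7.25 and 7.11 in SD and 8.09 and 7.98 in F344 retinae on day 6 in room air, against 6.67 and 6.54 in SD and 7.27 and 7.40 in F344 retinae on day 5. Under hyperoxia it was at 6.95 and 6.94 in SD and 7.70 and 7.43 in F344 retinae on day 6, against 6.26 and 6.28 in SD and 7.51 and 7.28 in F344 retinae on day 5. In room air the day 6 arrays lay above the day 5 arrays in each strain, and under hyperoxia this held in SD while the F344 arrays of the 2 days overlapped. The day difference was 0.64 ± 0.09 in room air (moderated SE, limma adjusted p = 0.00199, n = 4 arrays per day), a 1.55-fold rise. Under hyperoxia it was 0.42 ± 0.09 (limma adjusted p = 0.00974), and 0.49 without the F344 array that stood apart (adjusted p = 0.00376).

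Gabrr1 encodes the rho1 subunit of the GABA-A channels found on bipolar cell terminals. It was at 6.79 and 6.84 in SD and 5.81 and 6.33 in F344 retinae on day 6 in room air, against 5.82 and 5.84 in SD and 5.22 and 5.07 in F344 retinae on day 5. Under hyperoxia it was at 6.41 and 6.34 in SD and 6.62 and 5.74 in F344 retinae on day 6, against 5.59 and 5.52 in SD and 5.65 and 5.21 in F344 retinae on day 5. Within each strain and gas condition both day 6 arrays exceeded both day 5 arrays. The rise was 0.95 ± 0.16 in room air (limma adjusted p = 0.00515), which is 1.93-fold, and 0.78 ± 0.16 under hyperoxia (limma adjusted p = 0.00866), or 1.00 without the array that stood apart.

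The gene of the rho2 subunit, Gabrr2, neighbours Gabrr1 on chromosome 5. Under hyperoxia it was at 5.18 and 4.91 in SD and 5.94 and 4.93 in F344 retinae on day 6, against 4.32 and 4.40 in SD and 4.95 and 4.21 in F344 retinae on day 5. In SD day 6 lay above day 5, and in F344 the lower day 6 array, at 4.93, fell just under the higher day 5 array, at 4.95. Its rise of 0.77 ± 0.20 passed the test (limma adjusted p = 0.0363), and it was 1.02 without the array that stood apart (adjusted p = 0.00259) and 0.52 without that array's partner (adjusted p = 0.0626). The hyperoxia call was lost in 8 of the 16 fits that each left out 1 array. It was kept in 2 of the 6 alternatives with all arrays, among which the filter on dim genes leaves Gabrr2 out untested. In room air the change of Gabrr2 was 0.73 ± 0.20 and missed the threshold (limma adjusted p = 0.0645). Gabrr3, the rho3 gene on chromosome 11, had changes of 0.50 in room air and 0.27 under hyperoxia, neither past the threshold.

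Promoter sequences are printed for the 3 members that rose with day and belong to bipolar cell signalling, Grm6, Gabrr1 and Gabrr2. They are RefSeq sequences of the rat assembly GRCr8, from 250 bases before the start of the gene through the first 50 bases of it, given 5′ to 3′ on the gene's strand. Capitals mark matches on either strand to GGATTA, the core bound by the photoreceptor and bipolar cell factors CRX and OTX2, to ACGTG, the core of the hypoxia response element, or to the E-box CAGCTG.
Grm6 promoter, chr10:35668753-35669052, plus strand: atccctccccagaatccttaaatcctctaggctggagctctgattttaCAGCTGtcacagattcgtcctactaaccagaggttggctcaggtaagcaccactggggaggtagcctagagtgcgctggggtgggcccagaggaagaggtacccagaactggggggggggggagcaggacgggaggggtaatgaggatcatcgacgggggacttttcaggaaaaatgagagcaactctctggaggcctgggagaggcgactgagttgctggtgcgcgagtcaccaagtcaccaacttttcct
Gabrr1 promoter, chr5:52320225-52320524, plus strand: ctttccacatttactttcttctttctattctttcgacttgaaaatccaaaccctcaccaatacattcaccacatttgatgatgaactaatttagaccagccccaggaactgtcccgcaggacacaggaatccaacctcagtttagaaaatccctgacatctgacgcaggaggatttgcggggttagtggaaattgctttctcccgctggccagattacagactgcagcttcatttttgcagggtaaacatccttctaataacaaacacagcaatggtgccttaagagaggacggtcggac
Gabrr2 promoter, chr5:52248228-52248527, plus strand: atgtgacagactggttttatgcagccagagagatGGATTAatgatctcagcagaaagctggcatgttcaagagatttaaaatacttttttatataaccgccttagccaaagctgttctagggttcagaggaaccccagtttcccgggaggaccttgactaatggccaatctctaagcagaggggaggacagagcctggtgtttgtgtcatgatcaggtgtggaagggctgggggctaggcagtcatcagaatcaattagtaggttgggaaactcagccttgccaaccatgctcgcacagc
The Grm6 window holds 1 CAGCTG, the Gabrr2 window 1 GGATTA, and the Gabrr1 window none of the 3 motifs. Of all 27457 promoters of this length, 7.11% hold GGATTA, 19.7% ACGTG and 15.1% CAGCTG on either strand. A promoter was on hand for 31 of the 43 members: 3 of them hold GGATTA (Gabrr2, Gabrr3 and Glra3), 3 hold ACGTG (Glra2, Grik1 and Grm8) and 8 hold CAGCTG. These matches describe the letters of the windows and say nothing of binding.

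The other members that passed in room air change in opposite directions. Gabbr1, the ligand-binding subunit of the GABA-B receptor, was higher on day 6 by 0.31 ± 0.08 (limma adjusted p = 0.0424), at 8.62 to 8.87 over the 4 arrays of day 6 and 8.30 to 8.71 over those of day 5, with overlap. The AMPA receptor gene Gria1 fell by 0.44 on the log2 scale (SE 0.10, limma adjusted p = 0.0267), and its 4 day 6 arrays, from 8.29 to 8.54, all lay below the 4 day 5 arrays, from 8.77 to 8.92. Glra2, the glycine receptor alpha subunit that predominates in immature neurons, fell by 0.48 (SE 0.12, limma adjusted p = 0.0408). When each of the 16 arrays was left out in turn, the call of Glra2 was lost in 13 fits and that of Gabbr1 in 12.

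In room air Glra2 was at 7.71 and 7.55 in SD and 7.28 and 7.38 in F344 retinae on day 6, against 7.86 and 7.75 in SD and 8.15 and 8.07 in F344 retinae on day 5. The difference between days was the larger in F344. Under hyperoxia Glra2 was at 7.69 and 7.70 in SD and 7.80 and 7.11 in F344 retinae on day 6, against 7.69 and 7.89 in SD and 7.77 and 7.68 in F344 retinae on day 5, and these arrays overlapped. Gabra3, a GABA-A alpha subunit gene of developing neurons, fell by 0.53 under hyperoxia (SE 0.12, limma adjusted p = 0.0153), and by 0.40 without the array that stood apart (adjusted p = 0.049). Its 4 hyperoxia arrays of day 6 ranged from 6.71 to 7.71 and those of day 5 from 7.44 to 8.16.

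Markers of cell types changed between the same arrays. In room air 4 of 5 cell-cycle and progenitor markers passed as lower on day 6, and their mean level per array was 7.70 to 8.53 on day 6 against 8.43 to 9.29 on day 5; under hyperoxia all 5 passed as lower, at 8.06 to 8.33 against 9.11 to 9.57. Under hyperoxia all 5 rod markers passed as higher on day 6, at a mean of 9.29 to 10.21 against 8.86 to 9.36, and in room air 1 of 5 passed, at 9.40 to 10.09 against 8.91 to 9.66. Of 7 bipolar cell markers, a list that holds Grm6 and Trpm1, 3 passed as higher on day 6 under each gas condition, with means of 6.98 to 7.60 against 6.51 to 6.90 in room air and 6.79 to 7.34 against 6.40 to 6.73 under hyperoxia. The part of these markers in the receptor changes was not tested, and in whole retinae fewer cells of a type and less RNA per cell cannot be told apart.

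Trpm1, the cation channel that mGluR6 controls in ON bipolar cells, was the other gene of the mGluR6 cascade with a large change between days. It rose by 1.33 ± 0.27 in room air (limma adjusted p = 0.0155) and by 1.51 ± 0.27 under hyperoxia (limma adjusted p = 0.00322). Gnb3, the G-protein beta subunit of these cells, rose by 0.44 ± 0.11 in room air (adjusted p = 0.0394), and the other 5 measured genes of the cascade did not pass in either condition.

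**Figure D2:**
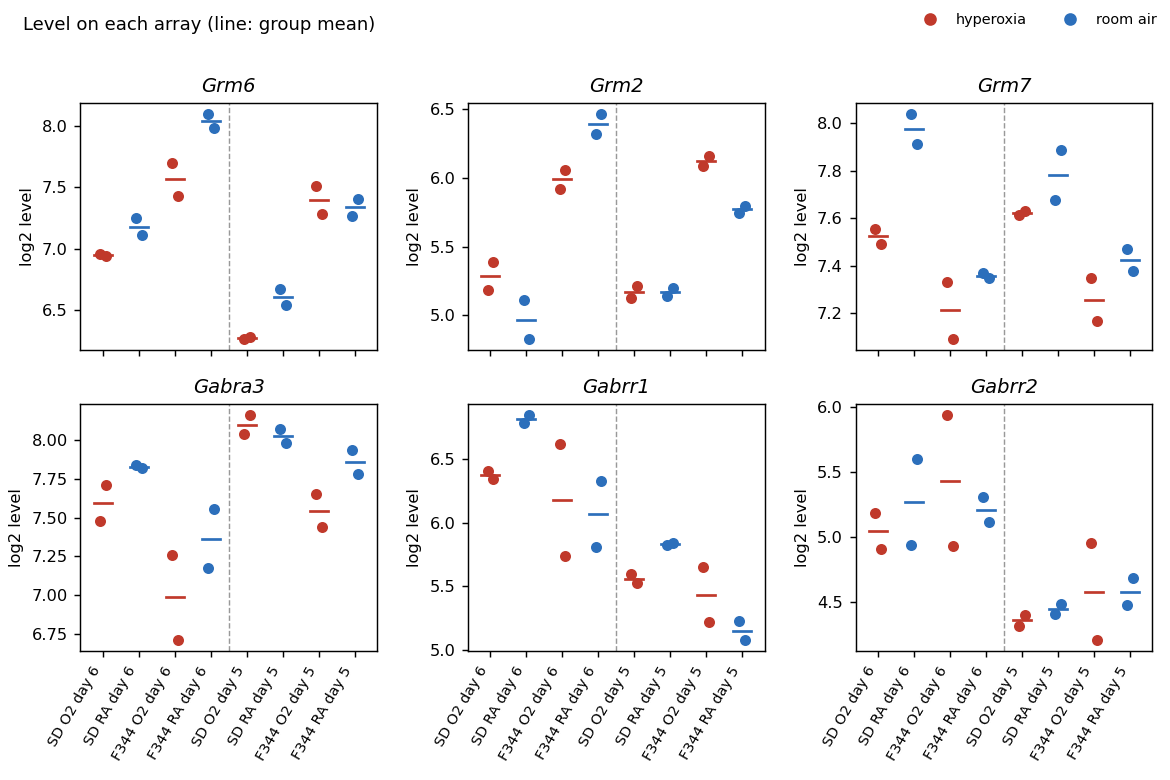
Log2 level of 6 receptor genes on each of the 16 arrays, with hyperoxia (O2) in red and room air (RA) in blue, SD left of F344 within each day and day 6 left of the dashed line; bars are group means of 2 arrays. Grm6 and Gabrr1 lie higher left of the line in each strain and gas condition by group means, Grm2 lies at 4.83 to 5.38 in SD and 5.75 to 6.46 in F344, and Grm7 is higher in SD than in F344 in every pair of groups.

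The strain comparison set SD against F344 retinae, averaged over both days, separately in each gas condition. Grm2 and Grm6 were lower and Grm7 was higher in SD than in F344 retinae in room air and under hyperoxia alike, each passing the test in both. Under hyperoxia 7 of 43 members passed, against 8.96% of all genes, with Grm7 and Gabra3 higher and Grm2, Grm6, Gabra5, Gabbr2 and Grik5 lower in SD. In room air 8 members passed, against 9.35% of all genes, with Grm7, Grm5, Gabrr1, Gabra2, Gabrb2 and Glra3 higher and Grm2 and Grm6 lower in SD. The strains came from separate animals and litters, so a strain difference here cannot be told apart from a difference between the litters used.

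Grm2 encodes mGluR2, a group II receptor that is known on starburst amacrine cells. Under hyperoxia it was at 5.18 and 5.38 on day 6 and 5.12 and 5.22 on day 5 in SD, against 5.92 and 6.06 on day 6 and 6.09 and 6.16 on day 5 in F344 retinae. In room air it was at 5.11 and 4.83 on day 6 and 5.14 and 5.20 on day 5 in SD, against 6.32 and 6.46 on day 6 and 5.75 and 5.79 on day 5 in F344 retinae. All 8 SD arrays lay below all 8 F344 arrays. The difference was −0.83 ± 0.09 under hyperoxia (limma adjusted p = 2.892e-05), or −0.80 without the array that stood apart (adjusted p = 0.000165), and −1.01 ± 0.09 in room air (limma adjusted p = 3.985e-06, n = 4 arrays per strain). The SD values lie below the array medians, so these differences include background signal.

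For Grm6 the arrays listed above for the day comparison lay lower in SD than in F344 within each day and gas condition, with no overlap. SD was lower by −0.87 ± 0.09 under hyperoxia (limma adjusted p = 2.136e-05) and by −0.79 ± 0.09 in room air (limma adjusted p = 5.351e-05), which are differences of 1.83-fold and 1.73-fold. Without the array that stood apart the hyperoxia value was −0.94. Trpm1 went the other way in room air: it was 1.21 ± 0.27 higher in SD (limma adjusted p = 0.0111), at 6.74 and 7.50 on day 6 and 5.34 and 6.01 on day 5 in SD, against 5.66 and 5.93 on day 6 and 4.21 and 4.94 on day 5 in F344 retinae. Under hyperoxia the Trpm1 difference was −0.07 ± 0.27 (adjusted p = 0.917). Of the other bipolar cell markers Cabp5, a calcium-binding protein gene, was higher in SD in room air by 0.61 ± 0.15 (adjusted p = 0.0191).

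Grm7 encodes mGluR7, a group III autoreceptor of transmitter-releasing terminals. Under hyperoxia it was at 7.55 and 7.49 on day 6 and 7.61 and 7.63 on day 5 in SD, against 7.33 and 7.09 on day 6 and 7.35 and 7.17 on day 5 in F344 retinae. In room air it was at 8.04 and 7.91 on day 6 and 7.67 and 7.89 on day 5 in SD, against 7.37 and 7.35 on day 6 and 7.47 and 7.38 on day 5 in F344 retinae. The strains did not overlap in either gas condition. SD was higher by 0.34 ± 0.08 under hyperoxia (limma adjusted p = 0.022), or by 0.28 without the array that stood apart (adjusted p = 0.0539), and by 0.49 ± 0.08 in room air (limma adjusted p = 0.00239). Over all 4 group III genes, which include Grm6, the median strain difference was 0.06 in both conditions.

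Among the GABA receptor genes, those that passed under hyperoxia were not those that passed in room air. Under hyperoxia Gabra3 was higher in SD by 0.58 ± 0.12 (limma adjusted p = 0.00695), at 7.48 to 8.16 in SD and 6.71 to 7.65 in F344 retinae, or by 0.45 without the array that stood apart (adjusted p = 0.0182). Gabra5, the gene of a subunit known for extrasynaptic GABA-A receptors, was lower in SD by −0.39 ± 0.07 (limma adjusted p = 0.00418), with all 4 SD arrays, from 4.72 to 4.91, below all 4 F344 arrays, from 5.20 to 5.27. Gabbr2, whose product couples the GABA-B receptor to G proteins, was lower by −0.38 ± 0.09 (limma adjusted p = 0.0207), at 6.06 to 6.33 in SD and 6.49 to 6.71 in F344 retinae, again without overlap. Without the array that stood apart the difference was −0.39 for Gabra5 (adjusted p = 0.00797) and −0.43 for Gabbr2 (adjusted p = 0.0150).

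In room air these same genes had strain differences of 0.32 for Gabra3, −0.10 for Gabra5 and −0.27 for Gabbr2, none past the threshold. The kainate receptor gene Grik5 was lower in SD under hyperoxia by −0.43 ± 0.13 (limma adjusted p = 0.0466), at 6.72 to 6.92 in SD and 7.08 to 7.43 in F344 retinae. Without the array that stood apart its difference was −0.34 (adjusted p = 0.119). Whether any of these strain differences itself differed between the gas conditions, averaged over days, was not tested.

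The room air calls for GABA and glycine receptor genes all ran toward SD. Gabrr1 was higher in SD by 0.72 ± 0.16 (limma adjusted p = 0.0111), and its arrays listed above did not overlap within either day. Gabra2, a GABA-A alpha subunit gene, was higher by 0.48 ± 0.13 (limma adjusted p = 0.03), at 7.79 and 7.64 on day 6 and 7.78 and 7.61 on day 5 in SD, against 6.86 and 7.04 on day 6 and 7.41 and 7.59 on day 5 in F344 retinae. Its strains lay further apart on day 6 than on day 5. Under hyperoxia Gabra2 was at 7.28 and 7.51 on day 6 and 7.46 and 7.48 on day 5 in SD, against 7.46 and 6.73 on day 6 and 7.33 and 7.12 on day 5 in F344 retinae, where the strains overlapped on day 6.

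Gabrb2, a GABA-A beta subunit gene, was higher in SD in room air by 0.45 ± 0.12 (limma adjusted p = 0.0251), with all 4 SD arrays, from 7.65 to 8.05, above all 4 F344 arrays, from 7.31 to 7.50. Grm5, which encodes the postsynaptic group I receptor mGluR5, was higher by 0.30 ± 0.09 (limma adjusted p = 0.0437), at 4.63 to 5.37 in SD and 4.60 to 4.76 in F344 retinae. The glycine receptor gene Glra3 was higher by 0.64 ± 0.19 (limma adjusted p = 0.049), at 6.22 and 5.34 on day 6 and 5.51 and 4.98 on day 5 in SD, against 4.67 and 4.85 on day 6 and 4.78 and 5.18 on day 5 in F344 retinae. When each of the 16 arrays was left out in turn, the call of Glra3 was lost in 12 fits and that of Grm5 in 13. Without the SD array at 6.22 the Glra3 difference was 0.42 (adjusted p = 0.176).

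Rod markers moved with strain as well. Under hyperoxia 4 of 5 passed as higher in SD, with a mean level of 9.33 to 10.21 per array against 8.86 to 9.75 in F344, and in room air 3 of 5, with 9.55 to 10.09 against 8.91 to 9.47. The means of the 7 bipolar cell markers were 6.45 to 7.05 in SD against 6.40 to 7.34 in F344 under hyperoxia, and 6.65 to 7.60 against 6.51 to 7.02 in room air. Cdk1, a cell-cycle kinase gene, was lower in SD by −0.64 ± 0.19 under hyperoxia (adjusted p = 0.0495), or −0.51 without the array that stood apart (adjusted p = 0.131), and −1.23 ± 0.19 in room air (adjusted p = 0.00107). Of the 11 amacrine and horizontal cell markers none passed between strains in either condition. The part of these markers in the receptor differences was not tested.

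**Figure D3:**
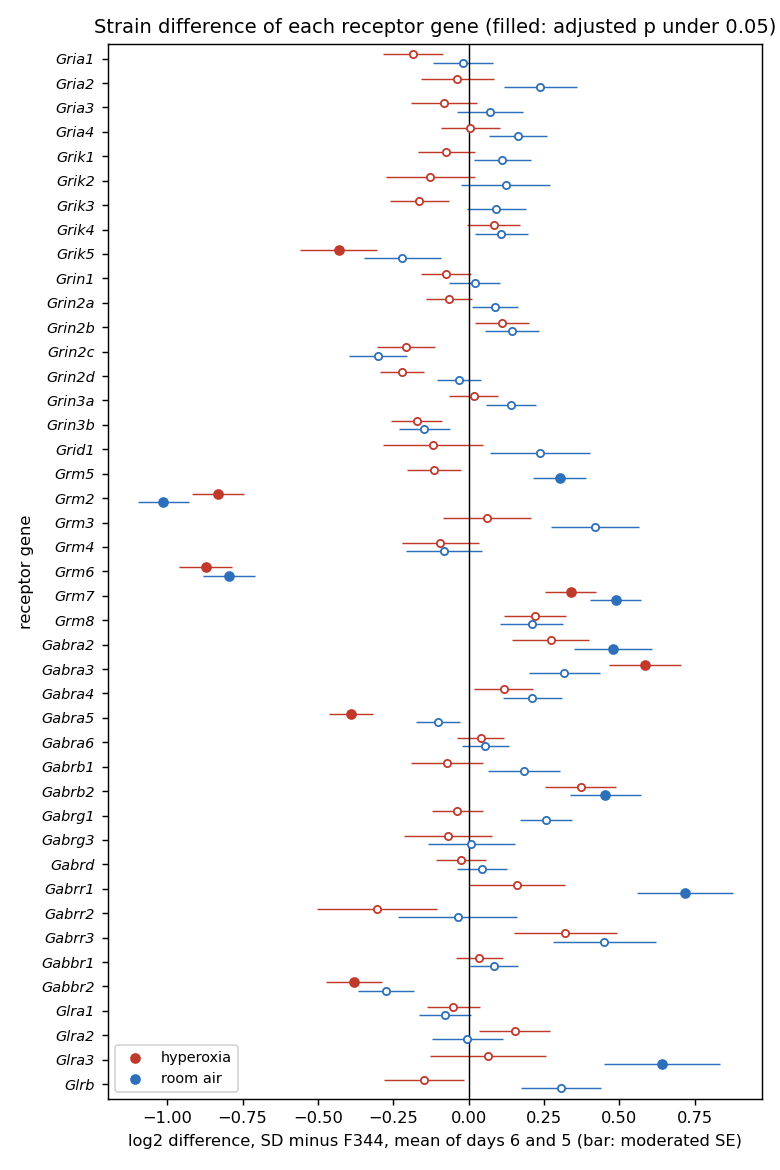
Log2 difference between SD and F344 retinae for each of the 43 receptor genes, averaged over both days, under hyperoxia (red, upper point of each pair) and in room air (blue, lower point); horizontal bars are moderated standard errors and filled points have an adjusted p under 0.05. Grm2 and Grm6 stand left of all other members at −0.79 to −1.01, and Gabrr1 and Glra3 in room air stand farthest right at 0.72 and 0.64.

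The oxygen comparison set cyclic hyperoxia against room air within a strain and a day, and asks which genes respond to the gas regime before retinopathy develops. In SD retinae most receptor genes had small changes below 0 under hyperoxia, of which 1 on day 6 and 0 on day 5 passed the test, and in F344 retinae none passed on either day. The median change over the 43 members was −0.23 in SD and −0.08 in F344 on day 6, and −0.19 in SD and −0.06 in F344 on day 5. Over all 14324 genes the corresponding medians were between −0.01 and 0.01. In SD 36 of the 43 members had a change below 0 on each day, and in F344 27 did on day 6 and 25 on day 5. The F344 medians moved with single arrays. Without F344 hyperoxia replicate 1 of the same day the median was −0.22 on day 6 and −0.16 on day 5. The members below 0 were then 33 and 29. Without F344 hyperoxia replicate 2 it was 0.03 on day 6, with 20 below 0, and −0.0009 on day 5, with 22 below 0. On day 5 it was −0.07 without F344 room air replicate 1, with 27 below 0, and −0.0004 without room air replicate 2, with 22 below 0.

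Counts of arrays that did not overlap describe the same arrays in another way and are no further test of a strain difference. In SD both hyperoxia arrays lay below both room air arrays for 26 members on day 6 and for 27 on day 5, against 24.7% and 21.5% of all genes. They lay above for 4 members on day 6 (Gabra6, Glra1, Grin2c and Grm2) and 0 on day 5, against 25.3% and 24.6% of all genes. In F344 they lay below for 11 members on day 6 and 16 on day 5, against 22% and 20.3% of all genes, and above for 5 and 7 members, against 20.7% and 20.5%. As shares of the 43 members, the counts below room air came to 60.5% and 62.8% in SD and to 25.6% and 37.2% in F344. All members of a count share the same 4 arrays, so they are not independent of each other. Between the 2 hyperoxia arrays of day 6, 16 members differed by over 0.5 in F344 and 0 in SD. The part of this spread in the F344 counts was not tested.

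Values are given here by receptor class, and whether the classes differed was not tested. On day 5 in SD all 4 AMPA, all 5 kainate and all 7 NMDA receptor genes had changes below 0, with medians of −0.27, −0.24 and −0.27, and so did all 4 group III metabotropic genes with a median of −0.15. On day 6 in SD the 4 AMPA genes had a median of −0.40, the 3 rho genes of −0.24 and the 4 group III genes of −0.24, all members below 0. The kainate and NMDA genes had medians of −0.05 on that day, with 4 of 5 and 5 of 7 below 0. In SD the 2 GABA-A beta genes had medians of −0.22 on day 5 and −0.38 on day 6. The 2 GABA-A gamma genes had medians of −0.28 and −0.25, and all of these were below 0 on both days. Members above 0 in SD on day 5 belonged to the GABA-A alpha, GABA-A delta, rho, GABA-B, group II and glycine classes. In F344 the AMPA genes were below 0 on day 5, with a median of −0.28, and spread from −0.14 to 0.25 on day 6, or from 0.12 to 0.49 without the array that stood apart.

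**Figure D4:**
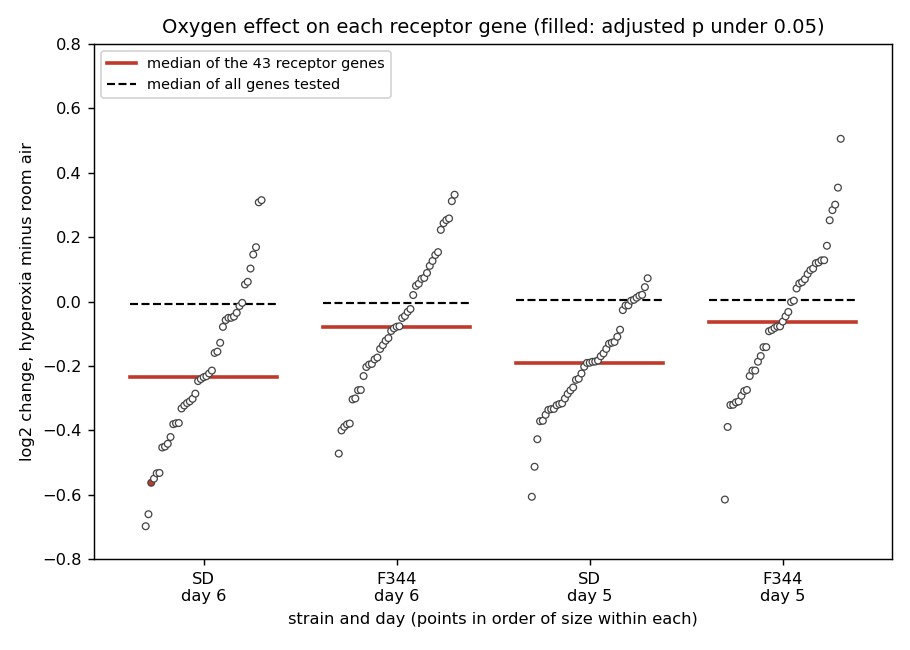
Log2 change, hyperoxia minus room air, of each of the 43 receptor genes in each strain and day, in order of size; the red line is their median, the dashed line is the median of all genes tested, and a filled point has an adjusted p under 0.05. The red lines lie at −0.23 and −0.19 in SD and at −0.08 and −0.06 in F344, and the only filled point is Grm5 in SD on day 6.

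On day 5 no member passed the limma test in SD, against 0.0628% of all genes, in F344, against 0.126%, or over both strains, against 0.209%. At an unadjusted p under 0.05 there were 8 members in SD, 6 in F344 and 7 over both strains, which is 18.6%, 14% and 16.3% of the members against 9.05%, 8.36% and 11.2% of all genes. The smallest p in SD belonged to the kainate receptor gene Grik3, at 4.94 and 5.10 under hyperoxia and 5.44 and 5.62 in room air, a change of −0.51 ± 0.14 (limma adjusted p = 0.388). It was followed by the NMDA receptor genes Grin2b, at −0.43 ± 0.13 (adjusted p = 0.391), and Grin2a, at −0.32 ± 0.11 (adjusted p = 0.442).

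In F344 on day 5 the smallest p was that of the AMPA receptor gene Gria3, at 7.30 and 7.10 under hyperoxia and 7.65 and 7.98 in room air, a change of −0.61 ± 0.16 (limma adjusted p = 0.226). Grm2 came next with 0.35 ± 0.12 (adjusted p = 0.416), then Grik5 with 0.51 ± 0.18 (adjusted p = 0.447). Over both strains the first 3 were Grin2b at −0.36 ± 0.09 (adjusted p = 0.156), Gria3 at −0.43 ± 0.11 (adjusted p = 0.162) and Gria1 at −0.29 ± 0.10 (adjusted p = 0.309).

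On day 6 over both strains 3 of 43 members passed, Grin2b, Grm6 and Grm7, all lower under hyperoxia, against 6.74% of all genes. At an unadjusted p under 0.05 there were 11 members, all lower, which is 25.6% of the members against 23.9% of all genes. By both thresholds the share of members was near that of all genes. Grin2b, the NMDA receptor subunit that predominates before and soon after birth, was at 6.03 and 6.07 under hyperoxia in SD, against 6.44 and 6.29 in room air. In F344 it was at 5.91 and 5.82 under hyperoxia, against 6.30 and 6.21 in room air. No hyperoxia array reached a room air array of its strain. On day 5 Grin2b was at 5.93 and 6.11 under hyperoxia against 6.57 and 6.34 in room air in SD, and at 6.14 and 5.83 against 6.27 and 6.29 in F344, again with no overlap. The day 6 change over both strains was −0.35 ± 0.09 (limma adjusted p = 0.0312), 1.28-fold lower.

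Grm6 on day 6 was lower under hyperoxia in each strain, at the levels listed above, by −0.35 ± 0.09 over both strains (limma adjusted p = 0.0277). Grm7 was lower by −0.30 ± 0.08 over both strains (limma adjusted p = 0.0458), and its arrays did not overlap between gas conditions in either strain on that day. All 3 calls ended without the F344 array that stood apart, with Grin2b at −0.33 (adjusted p = 0.0772), Grm6 at −0.28 (adjusted p = 0.0881) and Grm7 at −0.24 (adjusted p = 0.138). Leaving out each of the 16 arrays in turn, the calls of Grin2b and Grm6 were lost in 6 fits each and that of Grm7 in 11, among them the fit without SD hyperoxia day 6 replicate 1. The median over the members in both strains was −0.16 with all arrays, −0.07 without the array that stood apart and −0.21 without its partner.

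In SD on day 6 the only call among the members was Grm5, against 2.79% of all genes. It was at 4.75 and 4.56 under hyperoxia and 5.07 and 5.37 in room air, a change of −0.56 ± 0.13 (limma adjusted p = 0.0277). These levels lie below the array medians, and the call ended when any 1 of the 4 SD arrays of day 6 was left out. At an unadjusted p under 0.05 there were 16 members, 14 of them lower, which is 37.2% of the members against 18.8% of all genes. The next smallest p values were those of Grm7, at −0.45 ± 0.12 (adjusted p = 0.0552), and Glrb, at −0.66 ± 0.19 (adjusted p = 0.0708). Of the 6 alternatives that kept all 16 arrays, Grm5 passed in 5, Glrb and Grm7 in 2 each and Gria2 in 1. The remaining alternative for Grm5, the filter on dim genes, leaves this gene out, so it was not tested there. Each gene has 1 estimate of the spread over all groups, so the 2 unlike F344 arrays also enter the SE of SD changes.

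Glrb encodes the beta subunit that anchors glycine receptors at synapses, and it neighbours the AMPA receptor gene Gria2 on chromosome 2. On day 6 Glrb was at 6.84 and 6.82 under hyperoxia against 7.75 and 7.23 in room air in SD, and at 7.31 and 6.70 against 6.79 and 7.04 in F344. On day 5 it was at 6.63 and 6.91 against 7.12 and 7.03 in SD, and at 6.96 and 6.81 against 6.97 and 7.09 in F344. The SD groups were apart on both days, and the F344 groups overlapped on day 6.

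Gria2, whose product makes AMPA channels tight to calcium, was on day 6 at 8.82 and 8.68 under hyperoxia against 9.39 and 9.18 in room air in SD, and at 9.16 and 8.48 against 8.63 and 8.70 in F344. On day 5 it was at 8.83 and 8.90 against 9.16 and 8.95 in SD, and at 8.88 and 8.87 against 9.08 and 9.31 in F344. Hyperoxia arrays were the lower ones in 3 of the 4 pairs of groups, while in F344 on day 6 the 2 hyperoxia arrays lay on either side of the room air arrays. The SD change on day 6 was −0.53 ± 0.17 (limma adjusted p = 0.103).

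Grin1, the subunit that every NMDA receptor contains, did not pass in any comparison. On day 6 it was at 6.26 and 6.48 under hyperoxia against 6.30 and 6.53 in room air in SD, and at 6.49 and 6.43 against 6.62 and 6.76 in F344. On day 5 it was at 6.29 and 6.28 against 6.46 and 6.51 in SD, and at 6.38 and 6.32 against 6.24 and 6.11 in F344. SD arrays overlapped on day 6 and were lower under hyperoxia on day 5, and in F344 the order of the gas conditions turned between the days.

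In F344 on day 6 no member passed, against 1.19% of all genes, and 6 members had an unadjusted p under 0.05, which is 14% of the members against 17.6% of all genes. Without replicate 1 of F344 hyperoxia day 6 5 members passed, and without replicate 2, the array that stood apart, 0 did. The smallest p belonged to Grm6, at −0.47 ± 0.12 (limma adjusted p = 0.0681), Grm2, at −0.40 ± 0.12 (adjusted p = 0.104), and Grin2b, at −0.39 ± 0.13 (adjusted p = 0.125). Without the array that stood apart these were −0.34 for Grm6 (adjusted p = 0.283), −0.47 for Grm2 (adjusted p = 0.166) and −0.35 for Grin2b (adjusted p = 0.333).

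**Figure D5:**
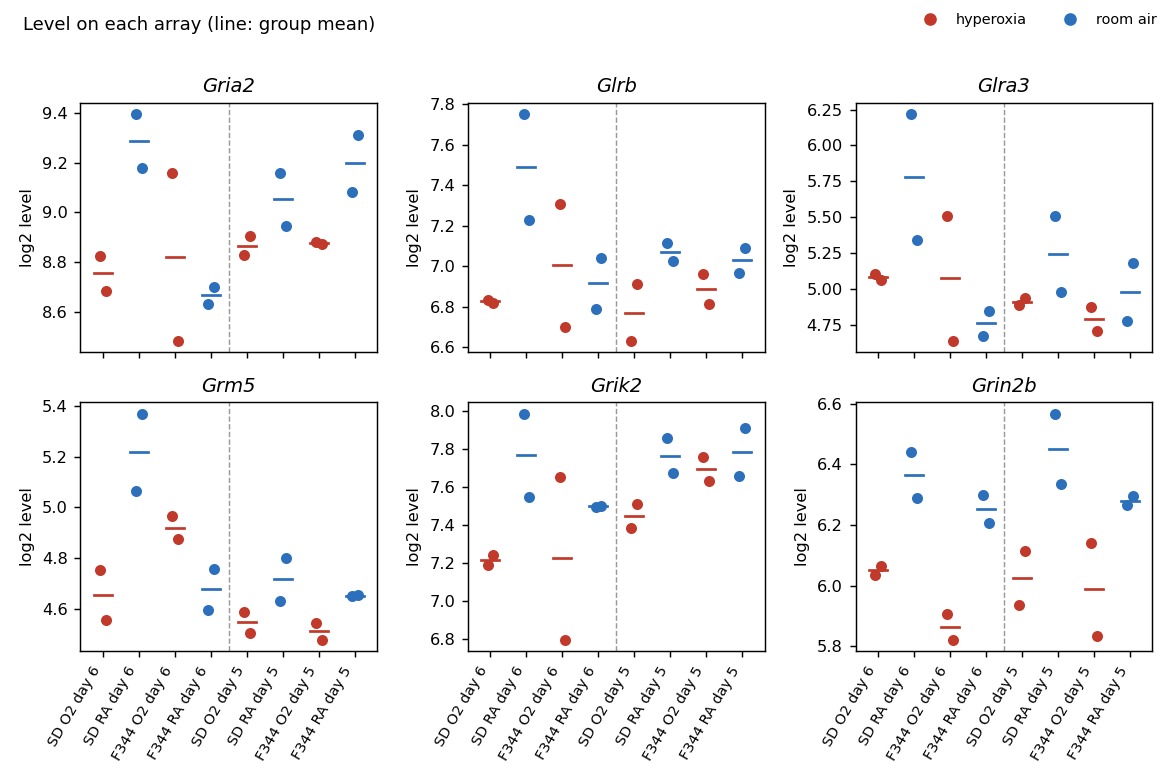
Log2 level of 6 receptor genes on each of the 16 arrays, with hyperoxia (O2) in red and room air (RA) in blue, SD left of F344 within each day and day 6 left of the dashed line; bars are group means of 2 arrays. Grin2b is lower under hyperoxia in all 4 pairs of groups, and the F344 hyperoxia arrays of day 6 lie far apart for Gria2 (9.16 and 8.48), Glrb (7.31 and 6.70), Glra3 (5.51 and 4.64) and Grik2 (7.66 and 6.79).

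Whether the oxygen effect differed between strains was tested on each day. On day 5 no member and no gene at all passed the limma test, so that 0% of genes were called, while an unadjusted p under 0.05 was reached by 5 members and by 879 genes in all, which is 11.6% of the members and 6.14% of all genes. The smallest p values were those of Grik3, at −0.77 ± 0.20 for SD minus F344 (adjusted p = 0.788), Grik5, at −0.69 ± 0.25 (adjusted p = 0.788), and Grin2d, at −0.36 ± 0.15 (adjusted p = 0.807). On day 6 no member passed, against 0.0559% of all genes, and 10 members had an unadjusted p under 0.05, which is 23.3% of the members against 11.5% of all genes. Grm5 came closest at −0.81 ± 0.18 (limma adjusted p = 0.0941), followed by Grm2 at 0.72 ± 0.17 (adjusted p = 0.105) and Gria3 at −0.67 ± 0.22 (adjusted p = 0.223). Without the array that stood apart 1 member passed, Gria2 at −1.02 (adjusted p = 0.0495), and Grm5 was at −0.85 (adjusted p = 0.0679), Grm2 at 0.78 (adjusted p = 0.0689) and Gria3 at −0.79 (adjusted p = 0.118). The lower medians of SD are therefore not shown, gene by gene, to differ from those of F344.

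Whether it differed between days was tested within each strain. The gas of the hyperoxia groups also changed between the days, so such a difference cannot be told apart from that change. In F344 Grm2 alone passed, against 1.02% of all genes: its oxygen effect was lower on day 6 than on day 5 by −0.75 ± 0.17 (limma adjusted p = 0.0496). On day 6 Grm2 was below room air, at 5.92 and 6.06 under hyperoxia against 6.32 and 6.46, and on day 5 it was above, at 6.09 and 6.16 under hyperoxia against 5.75 and 5.79. The call was kept in 3 of the 16 fits that each left out 1 array. Without the array that stood apart Grm2 was at −0.82 (adjusted p = 0.0469) and Glra2 passed as well, at 0.86 (adjusted p = 0.0341). Gria3 had the next smallest p, with a difference of 0.87 ± 0.22 (adjusted p = 0.0703), then Gabbr1 with −0.50 ± 0.16 (adjusted p = 0.134). In SD no member passed, against 0.112% of all genes. The smallest p values there were those of Grin2c, at 0.68 ± 0.19 (limma adjusted p = 0.808), Grik3, at 0.46 ± 0.20, and Grm5, at −0.39 ± 0.18, the last 2 with an adjusted p of 1.

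Of the 7 bipolar cell markers 1 passed in SD on day 6 and 0 on day 5. On day 6 the bipolar marker means were 7.05 and 6.95 under hyperoxia against 7.19 and 7.60 in room air, and on day 5 they were 6.45 and 6.45 against 6.65 and 6.90. Prkca, the protein kinase C gene of rod bipolar cells, fell by 0.81 on day 6 (SE 0.17, limma adjusted p = 0.0234). The ganglion marker means were 7.78 and 7.82 against 7.99 and 7.99 on day 6, with none of 7 markers past the test. Means of the 11 amacrine and horizontal cell markers, 7.54 and 7.64 under hyperoxia against 7.54 and 7.65 in room air, overlapped. The part of these markers in the receptor values was not tested.

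The genes that supply, clear or hold in place the same transmitters and receptors were compared with oxygen as well. Over both strains on day 6, 6.74% of all genes passed. On day 6 over both strains 2 of 10 measured genes of glutamate supply and clearance passed, both lower under hyperoxia, namely Slc17a7, the vesicular transporter of photoreceptors and bipolar cells, by −0.47 ± 0.13 (limma adjusted p = 0.0362) and Slc1a2, a glutamate uptake carrier, by −0.31 ± 0.09 (adjusted p = 0.0473). Slc6a11, a GABA uptake carrier, was lower by −0.58 ± 0.14 (adjusted p = 0.0286), the only 1 of 9 measured genes of GABA and glycine supply to pass. Of 25 measured receptor partners 2 passed, both lower, namely Grip1, which binds AMPA receptors, by −0.42 ± 0.09 (adjusted p = 0.0149) and Neto2, an auxiliary subunit of kainate receptors, by −0.33 ± 0.09 (adjusted p = 0.0439). Without the F344 array that stood apart Grip1 still passed, at −0.33 (adjusted p = 0.0451), and the others did not, with Slc17a7 at −0.43 (adjusted p = 0.102), Slc1a2 at −0.24 (adjusted p = 0.146), Slc6a11 at −0.42 (adjusted p = 0.102) and Neto2 at −0.25 (adjusted p = 0.143). The medians of these 3 lists were −0.17, −0.14 and −0.16, against −0.01 over all genes.

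In SD alone on day 6 3 of the 25 measured partners passed, against 2.79% of all genes. The scaffold genes Dlg1 and Dlg2 were lower under hyperoxia by −0.67 ± 0.15 (limma adjusted p = 0.0276) and −0.52 ± 0.13 (adjusted p = 0.0391), and Gabarap, named for its binding to GABA-A receptors and also part of autophagy, was higher by 0.54 ± 0.13 (adjusted p = 0.0383). Dlg1 was at 7.97 and 8.12 under hyperoxia and 8.71 and 8.72 in room air, without overlap. On day 5 none of the genes of these lists passed over both strains, against 0.209% of all genes.

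Genes of these lists also passed between days and strains. Slc17a7 was higher on day 6 in room air by 0.88 ± 0.13 (limma adjusted p = 0.00253), and by 0.37 ± 0.13 under hyperoxia, where it missed the threshold (adjusted p = 0.117). Slc12a5, the chloride exporter that sets the direction of GABA and glycine currents, was higher on day 6 in room air by 0.50 ± 0.13 (adjusted p = 0.0409) and lower in SD than in F344 under hyperoxia by −0.67 ± 0.13 (adjusted p = 0.00384), or −0.63 without the array that stood apart (adjusted p = 0.0121). Neto2 was higher in SD by 0.53 ± 0.09 under hyperoxia (adjusted p = 0.00271), or 0.45 without that array (adjusted p = 0.00791), and 0.48 ± 0.09 in room air (adjusted p = 0.00522).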

How the data were processed

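Gene array values of 16 pooled retinal RNA samples were used, 2 per group of strain, day and gas condition. The deposited values are log2 levels that the authors made with Partek 6.4 and RMA, per the submitters' processing notes; the scanner steps are not given in the sources used here. Of 27342 probe sets, 15097 had 1 annotated symbol, 323 had several and 11922 none here, and 15067 were matched by Entrez identifier to RefSeq names of GRCr8. A gene was measured by its probe set with the highest mean, which left 14324 genes.

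Group means were fitted with limma 3.58.1 in R 4.3.3 over all 16 arrays (8 residual and 7.407 prior degrees of freedom). Each of 14 contrasts was adjusted by the Benjamini-Hochberg method over all 14324 genes, and an adjusted p under 0.05 was a call. Summaries used Python 3.11.15, pandas 2.3.3 and numpy 2.4.6. The fit was tested on simulated data. Members and gene lists were chosen with earlier results of these data known. Full statistics are given for every called member and, where under 3 were called, for those of smallest p up to 3. Grm6, Gria2, Grin1, Grin2b, Gabra2, Gabrr1, Glra2 and Glrb are given on every array, and other genes only from lists of transmitter supply, receptor partners, the mGluR6 cascade and cell markers. The alternatives were every probe set on its own, a filter on dim genes, quantile normalization, median centring, array weights, a replicate block and leaving out each array. Same-numbered replicates deviated together with correlations from −0.287 to 0.519 over 28 pairs of groups, of which 8 were over 0.1, so the numbers were not taken to pair the pools.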

Additional observations from a re-analysis of the deposited data

Results flagged for a closer look

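The oxygen effect on Grm2 in F344 retinae differed between the days by the test of that difference, day 6 minus day 5, at −0.75 ± 0.17 (limma adjusted p = 0.0496). Its hyperoxia arrays lay below room air on day 6 and above it on day 5, with no overlap on either day. Over the 16 fits that each left out 1 array the difference ran from −0.83 to −0.68. The call was kept in 3 of these fits and in 1 of the 6 alternatives with all arrays. The gas of the hyperoxia groups also changed between the days.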

How the results depend on the processing

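Leaving out 1 array at a time gave 0 to 14 members called for oxygen over both strains on day 6, 0 to 7 for oxygen in SD on day 6, 0 to 5 for oxygen in F344 on day 6, 0 to 1 for that effect's difference between strains on day 6 and 0 to 2 for the day difference of the oxygen effect in F344. It gave 4 to 12 members for strain under hyperoxia, 3 to 12 for strain in room air, 0 to 6 for day under hyperoxia and 2 to 8 for day in room air, and 0 in each of the other 5 comparisons. With array weights, 4 members were called for oxygen in SD on day 6 and 0 over both strains. Quantile normalization gave 3 for oxygen in SD on day 6, and every probe set on its own gave 3 for day in room air. The dim filter gave 0 for oxygen in SD on day 6, but it leaves out Grm5, the only member called there. The day difference of the oxygen effect in F344 had 0 members called under each of these 4 settings. The replicate block also gave 0 for that comparison, with Grm2 at an adjusted p of 0.0603, and moved no other count of calls by over 1.5 times. Grm2, Grm6 and Grm7 between strains in room air, Grm2, Grm6, Gabra3 and Gabra5 between strains under hyperoxia, and Grm6 and Gabrr1 between days in room air stayed called in all 16 fits that left out an array. No result for a single member changed direction while called, and the cause of the changes in the counts was not tested. With 2 pools a group, signal near background limits the 15 dim members most.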

Other observations

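The other probe set of Grid1, a delta glutamate receptor gene, ranged from 5.10 to 6.15 over the 16 arrays, while the one used in the comparisons reached 7.04 in replicate 2 of the SD room air group of day 5, against 6.18 in its partner. In that same array the mean level of the 5 cell-cycle and progenitor markers was 8.43, against 9.05 in its partner. In GRCr8 order Gabrg3 neighbours Gabra5 on chromosome 1, Gabra6 neighbours Gabrb2 on chromosome 10, and Gabrb1, Gabra4, Gabra2 and Gabrg1 lie together on chromosome 14 with only Cox7b2 among them.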
